A study of Homo sapiens with 14 samples.

Results

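Genes for paracrine growth factors, receptor tyrosine kinases and 1 receptor inhibitor were followed in IMR90, a fibroblast line derived from human fetal lung, during exposure to 2',3'-dideoxycytidine (ddC). The genes were taken by symbol from the deposited count table: the ligands HGF, FGF2, FGF7, KITLG and PDGFC, the receptors MET, PDGFRA, PDGFRB and EGFR, and the inhibitor ERRFI1, 10 of 27142 genes. They were chosen with their levels at these times already known, so their values are given as a description and nothing is supported with them. Polyadenylated RNA of wild-type cells was sequenced with a stranded kit. The treated groups received 20 uM ddC for 24, 48, 72 or 96 h, with 3 libraries at each time, and the untreated group had 2. The untreated cells are called 0 h in the design text, while their own labels give water as vehicle and a time of 4 days. The libraries are named biological replicates, and all 14 come from 1 cell line. In bulk RNA, fewer cells that express a gene and less of its RNA per cell cannot be told apart.

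ddC ends a growing DNA chain when it is built in, and it mainly hits the polymerase of mitochondria. Receptor tyrosine kinases sit in the cell membrane, pair up when a ligand binds, phosphorylate each other and pass the signal through adaptors, RAS and the ERK kinases. Lung fibroblasts are a known source of ligands that act on neighbouring cells: HGF binds MET and FGF7 binds an FGF receptor variant, both mainly on epithelium, and KITLG (stem cell factor) binds KIT on mast cells, melanocytes and blood progenitors. Fibroblasts themselves respond to PDGF through PDGFRA and PDGFRB, to FGF2 through FGFR1, and to EGF family ligands through EGFR. ERRFI1 (MIG6) is made in response to receptor signalling, binds the kinase domain of EGFR and blocks it.

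Start-site sequences are shown for ERRFI1, the member with the highest fold at 96 h, for HGF, the member with the lowest, and for PDGFRA, whose pattern over the libraries was among the nearest to that of HGF. Each is the 250 bases before a start site, read in the direction of the gene, from RefSeq on GRCh38.p14. Capitals mark the motifs searched on both strands, and the 6 motifs were AP-1 (TGANTCA), the cyclic AMP element (TGACGTCA), the hypoxia response core (ACGTG), the GC box (GGGCGG), the TATA box (TATAAA) and the CCAAT box (CCAAT).
ERRFI1, chr1:8026310-8026559, minus strand: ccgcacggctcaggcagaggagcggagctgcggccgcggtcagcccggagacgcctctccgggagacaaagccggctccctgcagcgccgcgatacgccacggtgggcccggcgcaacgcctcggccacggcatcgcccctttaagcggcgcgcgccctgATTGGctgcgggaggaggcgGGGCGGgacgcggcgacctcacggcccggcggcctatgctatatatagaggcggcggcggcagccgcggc
HGF, chr7:81770048-81770297, minus strand: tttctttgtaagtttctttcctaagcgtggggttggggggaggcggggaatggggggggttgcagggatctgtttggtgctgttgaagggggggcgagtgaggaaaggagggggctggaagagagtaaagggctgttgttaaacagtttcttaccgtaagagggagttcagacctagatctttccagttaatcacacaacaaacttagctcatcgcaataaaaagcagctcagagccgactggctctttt
PDGFRA, chr4:54229043-54229292, plus strand: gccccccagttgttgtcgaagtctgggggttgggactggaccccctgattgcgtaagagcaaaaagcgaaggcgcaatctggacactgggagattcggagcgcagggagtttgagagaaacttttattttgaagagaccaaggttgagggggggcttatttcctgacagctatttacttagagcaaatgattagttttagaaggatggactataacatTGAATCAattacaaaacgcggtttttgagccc

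These 3 windows differed in base composition. G and C made up 75.2% of the ERRFI1 window, 50% of that of HGF and 46.8% of that of PDGFRA. The ERRFI1 window held 1 GC box and 1 CCAAT box, and the HGF window held 0 of the 6 motifs. The PDGFRA window held 1 match to the AP-1 pattern at positions -32 to -26 from its start site. The middle base of that pattern was left open (N) and was A here, and the AP-1 share below counts any middle base. Of 35116 RefSeq windows of this length, 42.6% held a GC box, 32% a CCAAT box, 18.5% the hypoxia response core, 10.7% a TATA box, 6.57% an AP-1 motif and 1.65% the cyclic AMP element. RefSeq windows were matched for 9 of the 10 genes, and PDGFRA and EGFR had 2 start sites each. The second PDGFRA window, not shown, had 64% G and C, 2 GC boxes, 1 CCAAT box and 0 AP-1 motifs. FGF2 had 3 GC boxes, KITLG had 2 with a TATA box at -29 to -24, and FGF7 had 1 CCAAT box and 38.4% G and C.

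All 10 members passed the filter on low counts that left 13371 genes for testing. Libraries held 9398703 to 12147402 counts in total, and a member had 554 to 3863 of them. All 7 fibroblast markers stood above 10 CPM (the unit of counts scaled by library total) in every library, whereas CDH1, PECAM1, CDH5 and CD3E had 0 counts. Single markers of other cells were present throughout: KRT18, an epithelial keratin, at 39.5 to 61.3 CPM, CD68, found in macrophages, at up to 60.8 CPM, and TEK, an endothelial receptor, at up to 45.7 CPM. Of 6 markers of mural cells, which share many genes with fibroblasts, CSPG4 (161 to 244 CPM) and MCAM (272 to 328 CPM) stood above 10 CPM in every library, and the keratin KRT8 had 6.52 to 12.6 CPM. MALAT1, a noncoding RNA kept in the nucleus, varied between libraries of the same group, from 52.1 to 409 CPM in all. Reads on genes opposite to abundant genes, per 1000 reads of the abundant genes, were 0.879 to 1.05 in the untreated libraries, the 24 h libraries and 48 h replicates 1 and 2. They were 1.14 to 1.26 in 48 h replicate 3 and all libraries at 72 h and 96 h. The 2 library sets come from these counts and not from the labels: libraries were split at the largest gap in this measure (0.0836). The later times therefore differ from untreated cells and 24 h in library set as well as in exposure. Between these groups the set and the exposure cannot be told apart, and whether the measure itself changes with exposure was not tested. Antisense and duplicate loci had few counts: EGFR-AS1, inside EGFR, had 0 to 2 counts, the FGF7 copies FGF7P3 and FGF7P6 had 0 to 3 and 0, and NUDT6, which overlaps the end of FGF2 on the other strand, had 39 to 54. How reads shared by FGF7 and its copies were counted is not given in the sources used here, so the level of FGF7 is uncertain to that extent.

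In untreated cells the receptors of PDGF stood highest among the 4 receptors. Levels are comparable between genes only per length, here as CPM per kilobase (kb) of the transcript listed in the table. PDGFRB had 51.4 ± 1.88 CPM per kb (SD, n = 2), above 89.7% of tested genes, ERRFI1 had 39.4 ± 1.20 and PDGFRA had 36.8 ± 0.0315. Then came EGFR (19.9 ± 2.08), FGF2 (19.6 ± 1.09), KITLG (18.9 ± 0.688) and PDGFC (18.1 ± 1.36), and neighbours in this run of 4 had overlapping libraries. FGF7 (16.5 ± 0.498), MET (14.01 ± 0.304) and HGF (12.5 ± 0.153, above 60.9% of tested genes) were lowest, with no overlap between neighbours. The transcript listed for PDGFC is a noncoding isoform (NR_036641), so its length may not be that of the main messenger RNA.

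**Figure D1:**
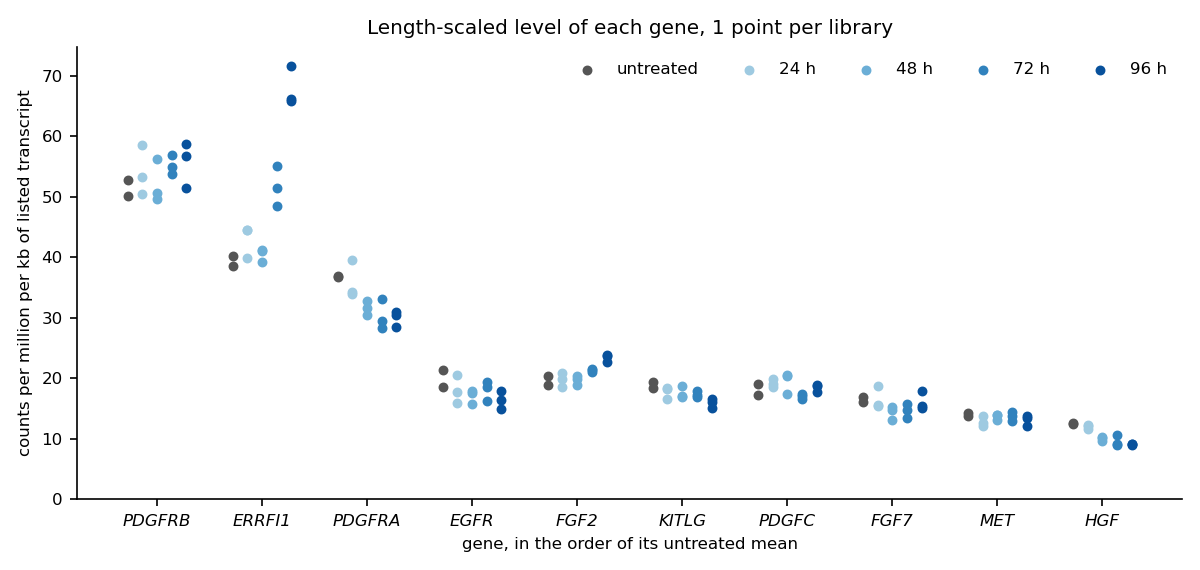
Level of the 10 genes in CPM per kb of listed transcript (vertical axis, from 0), 1 point per library, grouped by untreated cells and ddC time and ordered by the untreated mean. PDGFRB, ERRFI1 and PDGFRA stand above the other 7 genes in every group, and ERRFI1 passes PDGFRB at 96 h, at a mean of 67.8 against 55.6 CPM per kb.

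Differences from untreated cells were small at 24 h and wider at 96 h, and the members did not move in 1 direction. A gene was called where the edgeR quasi-likelihood test, fitted on all 14 libraries, gave a Benjamini-Hochberg adjusted p under 0.05 over all tested genes. At 24 h edgeR called 0 of the 10 members, with 0 at an unadjusted p under 0.05 and 0 by DESeq2 and limma-voom, and it called 0% of all tested genes. At 48 h it called 0 members, against 0.00748% of all genes, with 2 at an unadjusted p under 0.05 and 0 by DESeq2 and limma-voom. At 72 h it called 2 members, against 0.179% of all genes: ERRFI1 rose (0.142% of all genes) and HGF fell (0.0374%). At 96 h it called 5 of 10, against 5.68% of all genes: ERRFI1 and FGF2 rose (3.57%), and HGF, PDGFRA and KITLG fell (2.11%). Between 24 h and 96 h, a comparison without the untreated libraries, 4 were called, against 3.2% of all genes: ERRFI1 and FGF2 rose (2.58%), and HGF and PDGFRA fell (0.621%). Limma-voom called 3 of these.

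Groups that did not overlap were counted as well. At 24 h the treated libraries lay above both untreated ones for 0 members (7.8% of all tested genes) and below them for 3 (8.11%). At 48 h these counts were 0 (11.7%) and 4 (12%), and at 72 h 3 (12%) and 4 (12.2%). At 96 h 7 members did not overlap (40.3% of all genes), 2 higher (20.6%) and 5 lower (19.8%). Between 24 h and 96 h 4 did not overlap (19%), 2 higher (10.8%) and 2 lower (8.2%). Because the members were picked with these comparisons known, nothing is read from their share against that of all genes. The median member stood at -0.01, -0.08, -0.11 and -0.06 on the log2 scale at 24, 48, 72 and 96 h, where the median over all tested genes was 0.00 each time.

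**Figure D2:**
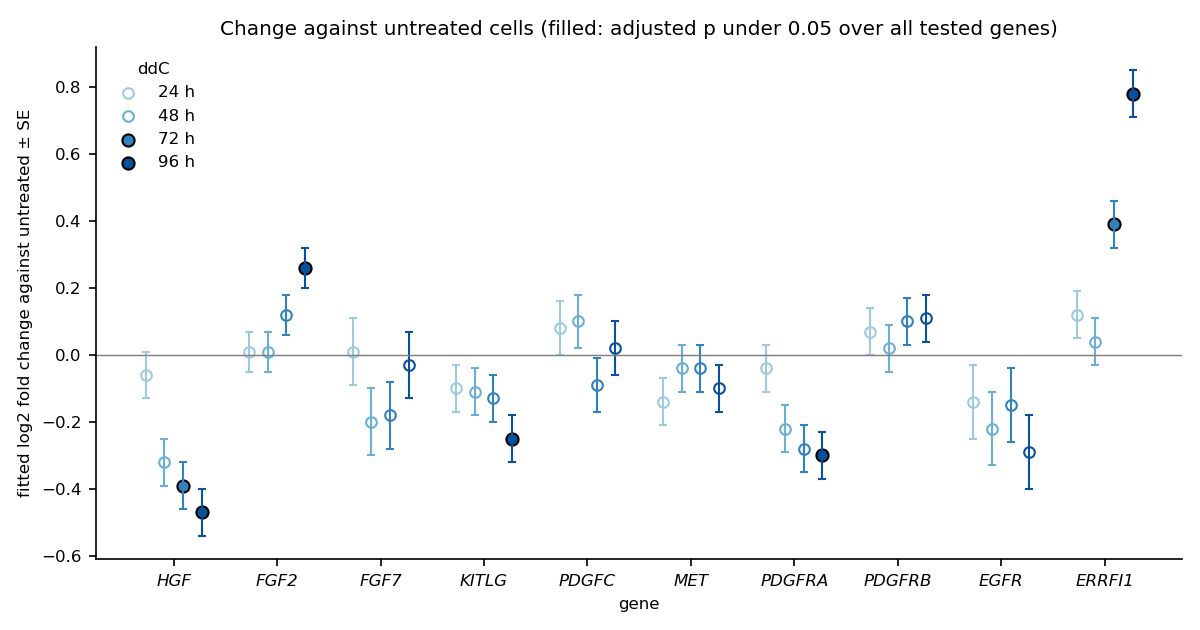
Fitted log2 fold change of each gene against untreated cells (vertical axis, bars are ± SE) at 24, 48, 72 and 96 h of ddC, with filled points for calls at an adjusted p under 0.05 over all tested genes. ERRFI1 reaches 0.78 and HGF -0.47 at 96 h, while MET, PDGFRB, PDGFC and FGF7 stay within 0.20 of 0 at each time.

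Among the ligands, HGF had the lowest level relative to untreated cells at 48, 72 and 96 h. HGF (NM_000601; hg19 chromosome 7, 81328324 to 81399514) stood at 75.2 and 73.9 CPM in the untreated libraries. It stood at 69.4, 72.0 and 73.0 CPM at 24 h and at 57.6, 60.2 and 61.3 CPM at 48 h. At 72 h it was 54.5, 63.4 and 53.3 CPM, and at 96 h 53.8, 53.2 and 54.1 CPM. Every treated library lay below both untreated ones, and the step was between 24 h and 48 h, where the groups did not overlap. The fitted log2 change was -0.06 ± 0.07 (SE, n = 3 and 2 libraries) at 24 h, -0.32 ± 0.07 at 48 h, -0.39 ± 0.07 at 72 h and -0.47 ± 0.07 at 96 h, or 0.721 times the untreated level. In the 48 h libraries of the lower antisense set, replicates 1 and 2, HGF stood at 57.6 and 60.2 CPM, and within that set of 7 libraries its log2 change at 48 h was -0.35 and was not called.

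FGF2, a heparin-binding mitogen that acts on fibroblasts themselves, differed in the other direction. FGF2 (NM_002006; chromosome 4, 123747863 to 123819390) had 138 and 127 CPM in untreated cells and 125 to 141 CPM over the 24 h and 48 h libraries. It had 144, 146 and 142 CPM at 72 h and 161, 161 and 154 CPM at 96 h. Libraries at 24 h and 48 h overlapped the untreated range, and those at 96 h lay above all libraries of the other 4 groups. Its fitted log2 change was 0.01 ± 0.06, 0.01 ± 0.06, 0.12 ± 0.06 and 0.26 ± 0.06 at the 4 times, a fold of 1.2 at 96 h.

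FGF7 (keratinocyte growth factor) had its lowest group means at 48 h and 72 h. Its untreated libraries had 66.1 and 63.3 CPM, those at 48 h 51.4 to 60.0 CPM, those at 72 h 52.8 to 61.5 CPM and those at 96 h 59.5 to 70.2 CPM. The 48 h and 72 h groups lay below the untreated libraries, the 24 h and 96 h groups overlapped them, and no time was called. The log2 change was -0.20 ± 0.10 at 48 h and -0.03 ± 0.10 at 96 h.

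KITLG stood at 105 and 99.8 CPM in untreated cells, and at 87.0, 89.8 and 81.7 CPM at 96 h. Libraries of the times between ranged from 89.7 to 101 CPM, so that 24 h and 96 h overlapped, and 48 h replicate 3 overlapped the untreated range. The log2 change was -0.10 ± 0.07 at 24 h, -0.11 ± 0.07 at 48 h, -0.13 ± 0.07 at 72 h and -0.25 ± 0.07 at 96 h. PDGFC, a ligand of PDGFRA that is secreted in latent form, had 58.4 and 52.6 CPM untreated and 50.7 to 62.6 CPM over the treated libraries. Its groups overlapped the untreated range at each time, with log2 changes from -0.09 ± 0.08 at 72 h to 0.10 ± 0.08 at 48 h.

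**Figure D3:**
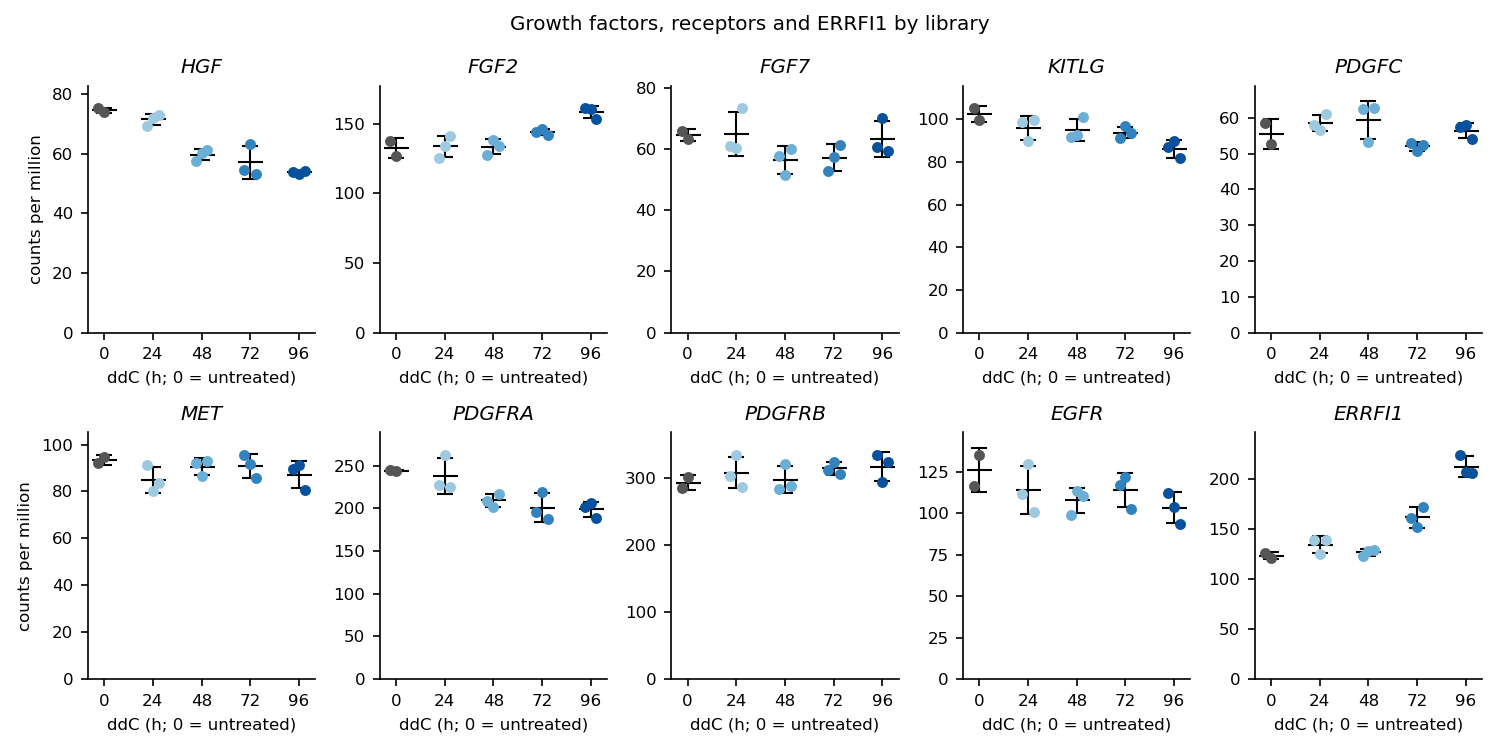
CPM (vertical axes, from 0) of the 10 genes by hours of ddC, with 1 point per library and bars for the group mean ± SD (n = 2 untreated, 3 at each time). HGF steps down between 24 h (71.5 CPM) and 48 h (59.7 CPM), whereas ERRFI1 holds near its untreated level until 48 h and reaches 212 CPM at 96 h.

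The 2 PDGF receptors parted from each other. PDGFRA (NM_001347828; hg19 chromosome 4, 55095256 to 55164414), which binds PDGFC, stood at 244 and 244 CPM in untreated cells and at 227, 262 and 225 CPM at 24 h. It stood at 209, 202 and 217 CPM at 48 h, at 196, 220 and 187 CPM at 72 h, and at 202, 206 and 189 CPM at 96 h. From 48 h on, all 9 libraries lay below both untreated ones, while 24 h replicate 2 lay above them. The log2 change was -0.04 ± 0.07, -0.22 ± 0.07, -0.28 ± 0.07 and -0.30 ± 0.07 at the 4 times. With the score of nuclear RNAs as a covariate it was also called at 72 h (-0.30). PDGFRB (NM_002609; chromosome 5, 149493402 to 149535422) had 285 and 300.2 CPM in untreated cells and 282 to 334 CPM over the treated libraries. It overlapped the untreated range at 24, 48 and 96 h and lay just above it at 72 h (306 to 323 CPM), with a log2 change of 0.11 ± 0.07 at 96 h.

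The count ratio of 2 genes within a library does not depend on the scaling of libraries. PDGFRA counts were 0.813 to 0.857 of PDGFRB counts in untreated libraries, 0.748 to 0.788 at 24 h, 0.63 to 0.753 at 48 h, 0.613 to 0.679 at 72 h and 0.585 to 0.702 at 96 h. Every ratio from 24 h on was below both untreated ones. HGF counts were 0.546 to 0.581 of those of FGF2 in untreated cells, 0.518 to 0.553 at 24 h, 0.436 to 0.457 at 48 h, 0.376 to 0.434 at 72 h and 0.331 to 0.352 at 96 h. From 24 h on, neighbouring times did not overlap in the ratio of these ligands.

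MET, the receptor of HGF, stayed near its untreated level. Its untreated libraries had 92.0 and 94.9 CPM and the treated ones 80.1 to 95.6 CPM, with log2 changes between -0.14 ± 0.07 at 24 h and -0.04 ± 0.07 at 48 h and 72 h. At 96 h it was -0.10 ± 0.07, with all 3 libraries (80.5, 89.8 and 91.4 CPM) just below both untreated ones. HGF counts per MET count were 0.779 and 0.817 in untreated cells and 0.582 to 0.672 at 96 h.

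EGFR had the widest relative spread of the members in untreated cells, with a coefficient of variation of 10.5%. It had 117 and 135 CPM in untreated cells, 101 to 130 CPM at 24 h, 99.3 to 113 CPM at 48 h, 102 to 122 CPM at 72 h and 93.7 to 113 CPM at 96 h. Libraries at 48 h and 96 h lay below both untreated ones, and no time was called. Its log2 change at 96 h was -0.29 ± 0.11, with an SE wider than that of the other members. Leaving out untreated replicate 2 (135 CPM) gave -0.18 ± 0.14, and leaving out untreated replicate 1 gave -0.39 ± 0.13. EGFR was called at 96 h when only the compared groups were fitted (-0.29) and with a score of nuclear long noncoding RNAs as a covariate (-0.24 ± 0.06). The 3 libraries highest in EGFR, untreated replicate 2, 24 h replicate 2 and 72 h replicate 2, had 271, 355.5 and 409 CPM of MALAT1, and the lowest, 96 h replicate 3, had 123 CPM. Other libraries did not keep to this order. Untreated replicate 1 and 72 h replicate 1 each had 117 CPM of EGFR, with 95.1 and 391 CPM of MALAT1. The library lowest in MALAT1, 48 h replicate 1 (52.1 CPM), had 99.3 CPM of EGFR, more than 96 h replicate 3 (93.7 CPM).

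ERRFI1 (NM_018948; hg19 chromosome 1, 8071779 to 8086393) rose the most. It stood at 126 and 120.4 CPM in untreated cells, at 139, 124 and 139 CPM at 24 h and at 122, 128 and 129 CPM at 48 h. At 72 h it stood at 160.4, 151 and 172 CPM and at 96 h at 224, 207 and 205 CPM. The first 3 groups overlapped, all 72 h libraries lay above them, and all 96 h libraries lay above those at 72 h. Its log2 change was 0.12 ± 0.07, 0.04 ± 0.07, 0.39 ± 0.07 and 0.78 ± 0.07 at the 4 times, a fold of 1.72 at 96 h. ERRFI1 counts per EGFR count, the inhibitor over its target, were 0.89 and 1.08 in untreated libraries and 1.99 to 2.19 at 96 h.

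**Figure D4:**
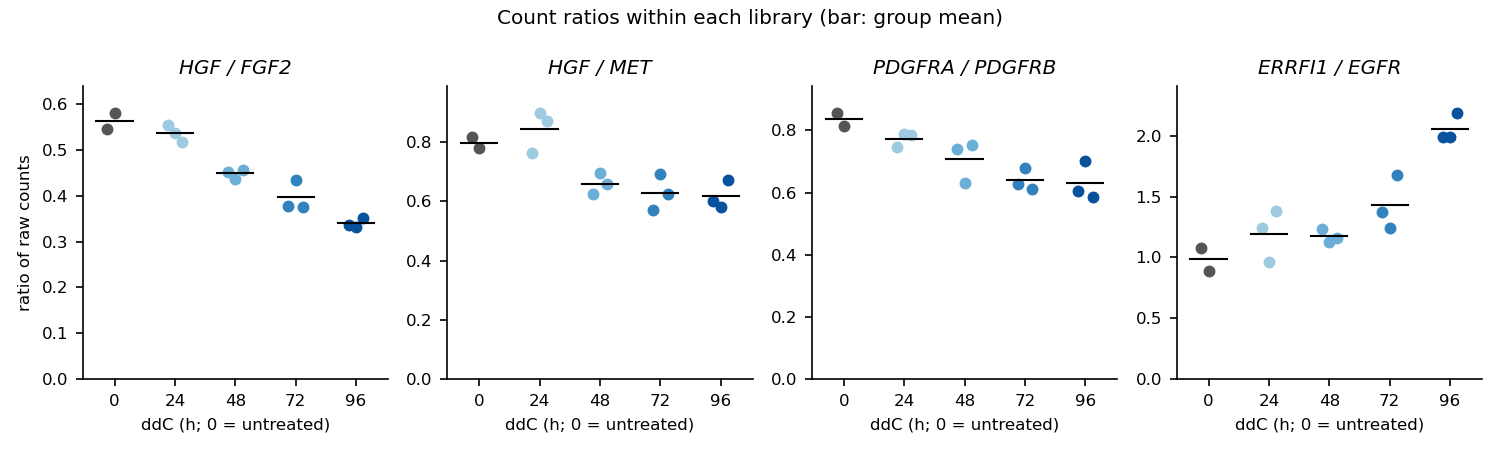
Ratio of raw counts (vertical axes, from 0) of 4 pairs of genes within each library by hours of ddC, with bars for group means. HGF per FGF2 goes from a mean of 0.564 in untreated cells to 0.339 at 96 h, PDGFRA per PDGFRB from 0.835 to 0.63, and ERRFI1 per EGFR from 0.984 to 2.06.

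Calls of several members ended when any 1 of several libraries was left out. The number called at 96 h was 2 without untreated replicate 1, untreated replicate 2 or 96 h replicate 1, and 3 without 96 h replicate 3, and the HGF and ERRFI1 calls remained in each case. Without these libraries KITLG ranged from -0.21 to -0.29, FGF2 from 0.20 to 0.31 and PDGFRA stayed between -0.26 and -0.31. At 72 h the calls of HGF (-0.34 to -0.40) and ERRFI1 (0.34 to 0.42) ended without either untreated library, 72 h replicate 1 or 72 h replicate 3. With the library set as a term, which rests on 48 h replicate 3 alone, HGF was -0.53 ± 0.12 and ERRFI1 0.74 ± 0.12 at 96 h, both still called. The other 3 calls ended, at -0.38 ± 0.11 for KITLG, -0.38 ± 0.13 for PDGFRA and 0.24 ± 0.11 for FGF2, as did that of HGF against 24 h (-0.47 ± 0.12). Between 24 h and 96 h, the FGF2 call ended without 24 h replicate 1 or 96 h replicates 1 or 2 (0.21 to 0.24). The PDGFRA call of that comparison ended without 24 h replicate 2 or any 1 of the 96 h libraries (-0.19 to -0.28). Other measures moved at 96 h as well, among them the summed level of the 7 fibroblast markers, mostly COL1A1 and COL1A2. This sum was 32940 to 33660 CPM in untreated and 38650 to 41950 CPM in 96 h libraries, and it does not show that each marker rose. That of the 5 epithelial markers, mostly KRT18, was 54.7 to 55.5 and 71.4 to 78.4 CPM, with CDH1 at 0 and EPCAM at 1 to 9 counts per library. Their part in these results was not tested.

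Likeness of pattern was measured as the root mean square (RMS) difference of log2 CPM, each gene centred on its own mean, over the 14 libraries. Nearest to HGF were PCDH18, a protocadherin (RMS difference of 0.0599), PDGFRA (0.0851) and NRP1 (0.0947), where the median tested gene differed from HGF by 0.229. For PDGFRA they were NCKAP5, the long noncoding RNA FENDRR and PCDH18 (0.0683 to 0.0723, median 0.192). ERRFI1 was nearest to SULF1, an extracellular sulfatase of heparan sulfate, at 0.0689, then VLDLR and LBH (0.0879 and 0.0996, median 0.33). SULF1 went from 88.2 CPM in untreated cells to 156 CPM at 96 h, a log2 change of 0.82 ± 0.07. FGF2 was nearest to MTHFD1L, ST3GAL1 and PLEKHA1 (0.046 to 0.0494, median 0.171), and KITLG to XRN2, HNRNPR and SKIV2L2 (0.0277 to 0.0316, median 0.16). A gene with no variation over the libraries would differ by 0.187 from HGF, 0.141 from PDGFRA, 0.298 from ERRFI1, 0.111 from FGF2 and 0.0936 from KITLG. Each of these is below the median given, so the median is a loose reference. All these distances are descriptions, and the genes share libraries and times.

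Other genes of the pathway were taken by family and role, 122 in the table, of which 82 were tested. Earlier results of these data were known when the lists were made. edgeR called 0 of the 82 at 24, 48 and 72 h, against 0%, 0.00748% and 0.179% of all tested genes. An unadjusted p under 0.05 was found for 2, 7 and 11. DESeq2 called 0, 0 and 2, and limma-voom 0 each time. At 96 h, 9 of 82 passed by edgeR (11%, against 5.68% of all tested genes), 5 higher and 4 lower. DESeq2 called 5 and limma-voom 6 of the 82. The median log2 change was 0.06 against 0.00 for all genes. Against 24 h, 8 of 82 passed at 96 h by edgeR (9.76%, against 3.2% of all genes), 7 higher and 1 lower, while DESeq2 called 3 and limma-voom 6. Because the lists were made with earlier results known, nothing is read from their shares against those of all genes.

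**Figure D5:**
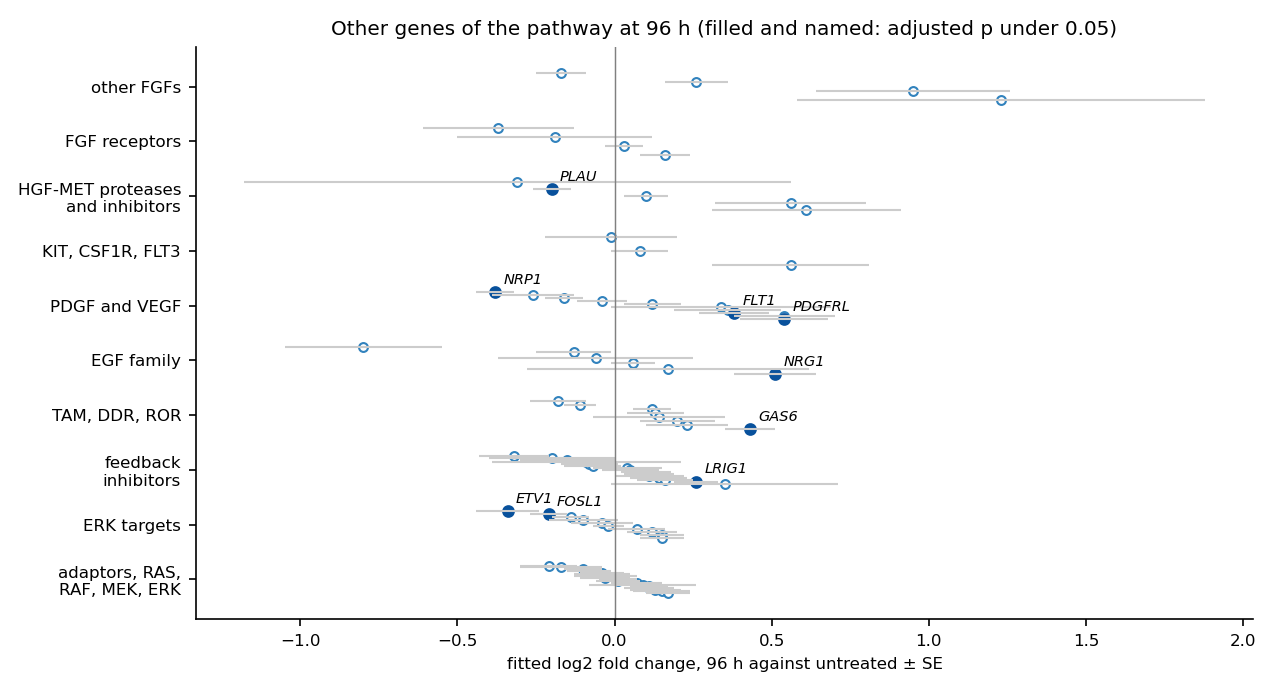
Fitted log2 fold change at 96 h against untreated cells (horizontal axis, bars are ± SE) of the 82 tested pathway genes outside the 10 members, in 10 families or roles. The 9 filled and named genes passed at an adjusted p under 0.05, and the adaptors, RAS, RAF, MEK and ERK genes stay between -0.21 and 0.17.

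Among other FGFs, 4 of 20 were tested and 16 had at most 8 counts in any library. FGF5 was the most abundant of those tested, at 198 CPM in untreated cells and 175 CPM at 96 h (log2 change -0.17 ± 0.08, adjusted p = 0.237 by edgeR). FGF11, a member that stays inside the cell, rose between 24 h and 96 h from 1.05 ± 0.320 to 2.12 ± 0.168 CPM (SD, n = 3 each; adjusted p = 0.0491 by edgeR), and 17 of 22 alternatives ended that call. Those included DESeq2 and leaving out any 1 library except 24 h replicate 1 and 72 h replicate 3 (adjusted p at most 0.306, log2 change 0.81 to 1.47 over all alternatives). Of the FGF receptors, edgeR called 0 of 4 tested at 96 h, against 5.68% of all tested genes. DESeq2 and limma-voom also called 0, and 0 had an unadjusted p under 0.05. A list of 4 genes is too short to tell 0 calls from that share. FGFR1, the receptor through which fibroblasts respond to FGF2, had 218 ± 5.23 CPM (SD, n = 2) in untreated cells and 223 ± 4.56 CPM (SD, n = 3) at 96 h, a log2 change of 0.03 ± 0.06.

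Around HGF and MET, PLAU (urokinase), a protease that activates plasminogen and can process HGF, fell from 672 ± 9.88 to 583 ± 40.1 CPM at 96 h, a log2 change of -0.20 ± 0.06 (edgeR adjusted p = 0.0492). This call ended without either untreated library, 48 h replicate 3, 72 h replicates 1 or 2, or 96 h replicate 1, and with limma-voom or the library set (at most 0.369). SPINT1 and SPINT2, inhibitors of the proteases that activate HGF, rose between 24 h and 96 h by 0.83 ± 0.22 and 1.16 ± 0.29 (edgeR adjusted p = 0.0416 and 0.0277). Both were scarce, at 2.49 and 1.71 CPM in untreated cells, 2.09 and 1.17 CPM at 24 h and 3.69 and 2.60 CPM at 96 h. Against untreated cells neither was called at 96 h (0.56 ± 0.24 and 0.61 ± 0.30, edgeR adjusted p = 0.183 and 0.267). SPINT2 lost its call without 24 h replicates 1, 2 or 3 or 96 h replicates 1 or 3, and with DESeq2 or the library set (at most 0.213). SPINT1 lost its call in 15 of 22 alternatives, among them every left-out library but 24 h replicate 1 and 72 h replicates 1 and 3 (at most 0.47).

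In the families of KIT, PDGF and VEGF, NRP1 had the smallest p. NRP1 (neuropilin-1), a co-receptor of VEGF and semaphorins, stood at 360.3 and 379 CPM in untreated cells, 344 to 353 CPM at 24 h and 277 to 289 CPM at 96 h. The 96 h libraries lay below those of both other groups. It fell by a log2 change of -0.38 ± 0.06 (edgeR adjusted p = 0.000451) against untreated cells, a call that none of the 22 alternatives ended (at most 0.0452), and by -0.29 ± 0.05 against 24 h (adjusted p = 0.00274), where the library set as a term ended the call (0.177). FLT1, a VEGF receptor, rose from 14.9 ± 0.196 to 19.4 ± 1.48 CPM (log2 change 0.38 ± 0.11, adjusted p = 0.0449). PDGFRL, which resembles the outer part of a PDGF receptor, rose from 9.71 ± 0.115 to 14.1 ± 1.98 CPM (0.54 ± 0.14, adjusted p = 0.0267). The PDGFRL call ended without either untreated library or 96 h replicates 2 or 3, and with DESeq2 or the library set (at most 0.323). That of FLT1 ended in 14 of 22 alternatives, among them either untreated library, 24 h replicate 1, any 1 of the 48 h libraries, 72 h replicate 2 and 96 h replicates 1 and 2 (at most 0.422). In the list of KIT and its relatives the 3 tested genes were KIT and the ligands CSF1 and FLT3LG. At 96 h 0 of them were called by edgeR, DESeq2 or limma-voom, where edgeR called 5.68% of all tested genes. A list of 3 genes is too short to tell 0 calls from that share. Only KIT had an unadjusted p under 0.05, and CSF1 stood at 0.08 ± 0.09. KIT, named here as the receptor of KITLG, was scarce, at 2.18 CPM in untreated cells and 3.23 CPM at 96 h (log2 change 0.56 ± 0.25, edgeR adjusted p = 0.2).

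In the EGF family edgeR called 1 of 6 tested genes at 96 h, against 5.68% of all tested genes, limma-voom 1 and DESeq2 0. NRG1 (neuregulin-1), a ligand of the EGFR relatives ERBB3 and ERBB4, rose from 10.1 ± 1.11 to 14.4 ± 1.80 CPM, a log2 change of 0.51 ± 0.13 (edgeR adjusted p = 0.0219), and by 0.43 ± 0.12 against 24 h (0.0439). Against untreated cells the call ended without either untreated library or 96 h replicates 1 or 3, and with DESeq2 or the library set (at most 0.356). Against 24 h it ended in 17 of 22 alternatives, with every left-out library but 72 h replicate 3 and 96 h replicate 2 (at most 0.582). ERBB3 had 0.964 CPM in untreated cells, and ERBB4 had 0 counts. EREG, another ligand of the family, moved the other way, from 4.51 ± 0.486 to 2.58 ± 0.585 CPM at 96 h. Its log2 change was -0.80 ± 0.25 and was not called (edgeR adjusted p = 0.0626). GAS6, the ligand of AXL, stood at 409 and 401 CPM in untreated cells and at 550.0, 517 and 568 CPM at 96 h. It rose by 0.43 ± 0.08 (edgeR adjusted p = 0.00127) against untreated cells and by 0.35 ± 0.07 against 24 h (0.00340), and none of 22 alternatives ended either call (at most 0.042 and 0.0289).

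Of 15 tested feedback inhibitors other than ERRFI1, 1 was called at 96 h, a share near the 5.68% of all tested genes. LRIG1, a membrane protein that promotes loss of EGFR family receptors, stood at 65.2 and 62.6 CPM in untreated cells, 61.8 to 63.9 CPM at 24 h and 75.4, 75.9 and 78.1 CPM at 96 h. All 96 h libraries were above those of the other groups, with a log2 change of 0.26 ± 0.07 against untreated cells (edgeR adjusted p = 0.0206) and 0.28 ± 0.06 against 24 h (0.00754). The first call ended without either untreated library or 96 h replicates 1 or 3 (at most 0.388), and both ended with the library set as a term. Over all 22 alternatives the log2 change was 0.23 to 0.29 against untreated cells and 0.25 to 0.29 against 24 h. SPRY1, SPRY2, SPRY4, DUSP4, DUSP5, DUSP6 and DUSP7, feedback inhibitors of the Sprouty and dual-specificity phosphatase families, stood between -0.09 and 0.35 at 96 h and were not called (edgeR adjusted p of 0.371 or more). Over all 15 tested inhibitors the log2 change ran from -0.32 to 0.35. CBL, also in this list, had 108 and 118 CPM in untreated cells and 82.6 to 96.2 CPM at 96 h. Its 96 h libraries lay below both untreated ones, and it was not called.

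Of 10 genes transcribed in response to ERK signalling, edgeR called 2 lower at 96 h (2.11% of all tested genes) and 0 higher (3.57%), and DESeq2 and limma-voom each called 1. FOSL1, a subunit of the transcription factor AP-1, fell from 213 ± 6.65 to 184 ± 10.3 CPM (log2 change -0.21 ± 0.06, edgeR adjusted p = 0.0372), and the ETS factor ETV1 fell from 43.6 ± 3.24 to 34.4 ± 2.51 CPM (-0.34 ± 0.10, adjusted p = 0.0443). The list's median was -0.03. The FOSL1 call ended without either untreated library or 96 h replicates 1 or 2, with no filter on low counts and with the library set (at most 0.636). That of ETV1 ended without either untreated library, 72 h replicates 1 or 2 or any 1 of the 96 h libraries, and with DESeq2, limma-voom or the library set (at most 0.385). Of 17 adaptors and kinases from receptor to ERK, edgeR called 0 at 96 h, against 5.68% of all tested genes, and 17 genes are too few to tell 0 calls from that share. DESeq2 and limma-voom also called 0 of the 17, and 2 had an unadjusted p under 0.05. SHC1, the most abundant of these, stood at 401 ± 24.4 CPM in untreated cells and 450.5 ± 22.1 CPM at 96 h, a log2 change of 0.17 ± 0.07 (edgeR adjusted p = 0.195).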

How the data were processed

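Polyadenylated RNA of 14 IMR90 libraries was made into stranded libraries (TruSeq), per the labels' protocols. STAR 2.5.3a, HOMER and hg19 are named in the submitters' processing notes. The authors deposited raw read counts per gene (27142 genes), and each column was joined to its sample by title. The strand setting, filters and annotation release are not given in the sources used here. The members and gene lists were chosen with earlier results of these data known.

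Counts were analysed with edgeR 4.0.16 in R 4.3.3: TMM factors (0.971 to 1.02), genes kept by filterByExpr at a minimum count of 10 and a total of 15, and a quasi-likelihood model with robust dispersions in which each of the 5 groups had its own mean. CPM is the count relative to the TMM-scaled library total. The SE is the size of the log2 change over the square root of F. Tests were two-sided and called at an adjusted p under 0.05. Pattern distances used a prior count of 3. The antisense measure used 475 genes of at least 50 CPM and 496 opposite-strand overlapping genes with under 1% of their reads. The fit was also run on simulated counts that held no library set or nuclear RNA differences. That run cannot show how these differences affect the calls. Every replicate pair differed by more than counting noise.

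Named pathway genes were, for each list and comparison, at most 3 called genes with the smallest p, or, for a list with 0 called in every comparison, its most abundant tested gene. FGF5, KIT, FLT3LG, CBL, EREG, ERBB3, ERBB4 and the SPRY and DUSP genes were named after their values were seen. Alternatives were median-ratio size factors, DESeq2 1.42.0, limma-voom (limma 3.58.1), no filter, a replicate block, a fit of the compared groups alone, a nuclear RNA score, the library set, each library left out and, added after seeing the data, only the 7 libraries with fewer antisense reads. With 1 untreated library left, it is assumed to vary like the other groups.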

Additional observations from a re-analysis of the deposited data

How the results depend on the processing

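Member counts were 0 at 24 h and 48 h, 2 at 72 h and 5 at 96 h against untreated cells, and 4 at 96 h against 24 h. With the nuclear RNA score in the model, 1 member was called at 48 h. At 72 h the count was 0 with only the compared groups, 0 with the library set and 3 with the nuclear RNA score. At 96 h it was 2 with the library set and 6 with the compared groups alone or the nuclear RNA score, and against 24 h 2 with only the compared groups and 1 with the library set. Pathway gene counts were 0 at 24, 48 and 72 h, 9 at 96 h and 8 against 24 h. At 72 h they were 2 with DESeq2, 1 with no filter and 4 with the nuclear RNA score. At 96 h they were 5 with DESeq2, 15 with only the compared groups, 16 with the nuclear RNA score and 2 with the library set. Against 24 h they were 3, 4, 15 and 1. With 1 library left out, member counts ranged from 0 to 2 at 72 h, from 2 to 5 at 96 h and from 2 to 4 against 24 h. Pathway counts ranged from 0 to 1, from 2 to 11 and from 3 to 8. CSF1 at 96 h turned from 0.08 to -0.01 without untreated replicate 1, and its values with 1 library left out ranged from -0.01 to 0.18. The cause of these differences was not tested, apart from the smaller number of libraries in some fits. The share of all tested genes called is given here for the main fit only. Counts under the alternatives are therefore not read as results about the members or the pathway.

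The labels give groups the same replicate numbers. Deviations of same-numbered libraries of different groups had a median correlation of -0.0293 over 26 pairs, 11 of them above 0.1. For pairs with different numbers the median was 0.042. Some same-numbered libraries did deviate together: replicates 2 of untreated cells, 24 h, 48 h and 72 h had correlations of 0.296 to 0.468 with each other. With 96 h replicate 2 they had -0.33 to -0.154. The correlation of 24 h and 72 h replicates 3 was 0.611. With the replicate block, member counts were 0, 0, 2 and 5 against untreated cells and 4 against 24 h, and pathway counts 0, 0, 0, 9 and 6. In the 7 libraries with fewer antisense reads, chosen after seeing the data, 0 members and 0 pathway genes were called at 24 h and 48 h. All called members kept their sign in each of 22 alternatives. Only 2 untreated libraries limit every comparison with untreated cells.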
